A study of Mus musculus with 8 samples.

Results

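The clustered protocadherins are cell-surface adhesion molecules of the cadherin superfamily whose genes lie in 3 neighbouring arrays, alpha, beta and gamma, on mouse chromosome 18. Here they were taken as every row of a gene count table whose symbol begins with Pcdha, Pcdhb or Pcdhg, which gave 59 rows of 30419: 15 alpha, 22 beta and 22 gamma. Of these, 43 rows had a count in at least 1 library and 16 had none. The 14 rows with 10 or more counts in 2 or more libraries were tested, and all 14 belonged to the beta cluster.

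The cells were early passage mouse embryonic fibroblasts (MEFs), grown from E13.5 embryos. They were either wild type at Dino, labelled Dino +/+, or Dino mutant, labelled Dino lox/lox. Dino is a long noncoding RNA known for its induction by p53 after DNA damage. Each genotype received vehicle or 0.2 µg/mL doxorubicin, a drug that breaks DNA, for 8 h before RNA was taken from 300000 cells, so that there were 4 groups of 2 libraries, lettered A and B. No Cre driver, clone, pooling or number of embryos is given in the sources used here, and nothing in them says that A and B came from separate cultures or embryos. The p-values below therefore measure the spread between these libraries, which may be technical. In bulk RNA, fewer cells of a type and less RNA per cell cannot be told apart.

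In the alpha and gamma clusters, each variable exon has its own promoter and is spliced to constant exons that all genes of that cluster share, and those constant exons encode the common end of the cytoplasmic tail. The beta genes have no constant exons, and each is an essentially intronless gene with its own short tail. In neurons, promoter choice by CTCF, cohesin and DNA methylation gives each cell its own combination of isoforms, which bind like to like between membranes and serve self-recognition of neurites and synapse formation. Fibroblasts are not the cells for which the family is known.

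Total counts per library ran from 25482805 to 33285171. Levels are given as CPM, a gene's counts scaled to a common library size with edgeR's TMM factors, and a count of 0 allows up to 3 counts, which was 0.0879 to 0.120 CPM depending on the library, for counting error only. The p53 targets Mdm2, which encodes the ubiquitin ligase of p53, and Cdkn1a, which encodes a cell cycle inhibitor, rose with doxorubicin in both genotypes, by log2 fold changes of 3.09 and 2.46 in wild type and 2.91 and 2.50 in mutant cells. All 12 fibroblast markers on the list used were tested, with Col1a2, Prrx1 and Vim the most abundant in the controls and summed levels of 4390 to 6030 CPM. Summed over their lists, markers of neurons and neural progenitors were at 46.3 to 75.7 CPM, of macrophages and leukocytes at 20.1 to 34.4 CPM, of endothelium at 1.34 to 11.1 CPM, of glia and Schwann cells at 0.398 to 1.25 CPM and of epithelium at 0.344 to 0.812 CPM.

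Counts over the family were almost wholly beta counts. The beta rows held 11510 of the 11705 counts given to the family over the 8 libraries (98.3%), the gamma rows 188 (1.61%) and the alpha rows 7 (0.0598%). Summed over the cluster, the alpha rows had 3 and 2 counts in the wild-type controls, 0 and 1 in wild type with doxorubicin, 1 and 0 in the mutant controls and 0 in both mutant libraries with doxorubicin. These sums lay at or below the 3 counts that a count of 0 allows. The gamma rows together had 25 and 36 counts in the wild-type controls, 21 and 28 in wild type with doxorubicin, 22 and 22 in the mutant controls and 15 and 19 in mutant cells with doxorubicin. Gamma counts were thus present in every library, but they were spread over 20 rows, with no row above 7 counts in any library.

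The threshold for testing separated the rows as follows. Just inside it were Pcdhb9, with 10 and 29 counts in the libraries that reached 10, and Pcdhb14, with 15 and 12. Just outside were Pcdhgc3, whose largest count was 7, and Pcdhga2, Pcdhga5, Pcdhga7 and Pcdhgb2, whose largest count was 5. Of the 8 beta rows not tested, Pcdhb1 and Pcdhb6 had no count and Pcdhb2, Pcdhb8, Pcdhb10, Pcdhb12, Pcdhb15 and Pcdhb21 had at most 3 in any library. Of the alpha rows, 12 had no count, and among the gamma rows Pcdhga10 and Pcdhgb8 had none.

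The 3 clusters also differ in how far a read can be given to 1 member. In the GENCODE M21 gene models of GRCm38, which is not the mm9 build of the files, the alpha genes shared a median of 53.6% of their exonic bases with another gene on the same strand (12 of 15 rows with a model of their own), and the gamma genes 44.7% (22 of 22). The last 500 bases of the model were wholly shared in 12 of 12 alpha and 22 of 22 gamma genes. For the 22 beta genes the median was 0, the maximum was 9.67%, for Pcdhb21, which overlaps its neighbour Pcdhb22 (6.88%), and the last 500 bases were unshared in 21. How the authors' counting treated a read that fits several genes is not given in the sources used here, and the part of shared exons in the low alpha and gamma counts was not tested. A median of 4.48% of the 50-base windows of a beta gene occurred in a transcript of any other gene, on either strand. The medians were 61.4% for alpha and 51.3% for gamma, and these include the exons that the genes share. Pcdhb3 was at 2.89%, Pcdhb17 at 3.60%, Pcdhb20 at 5.47% and Pcdhb11 at 9.52%. Pcdhb12, at 64.2%, shared most of its windows with an annotated antisense gene, so its few counts are uncertain. That gene, Gm37446, also held the most shared windows of Pcdhb11.

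**Figure D1:**
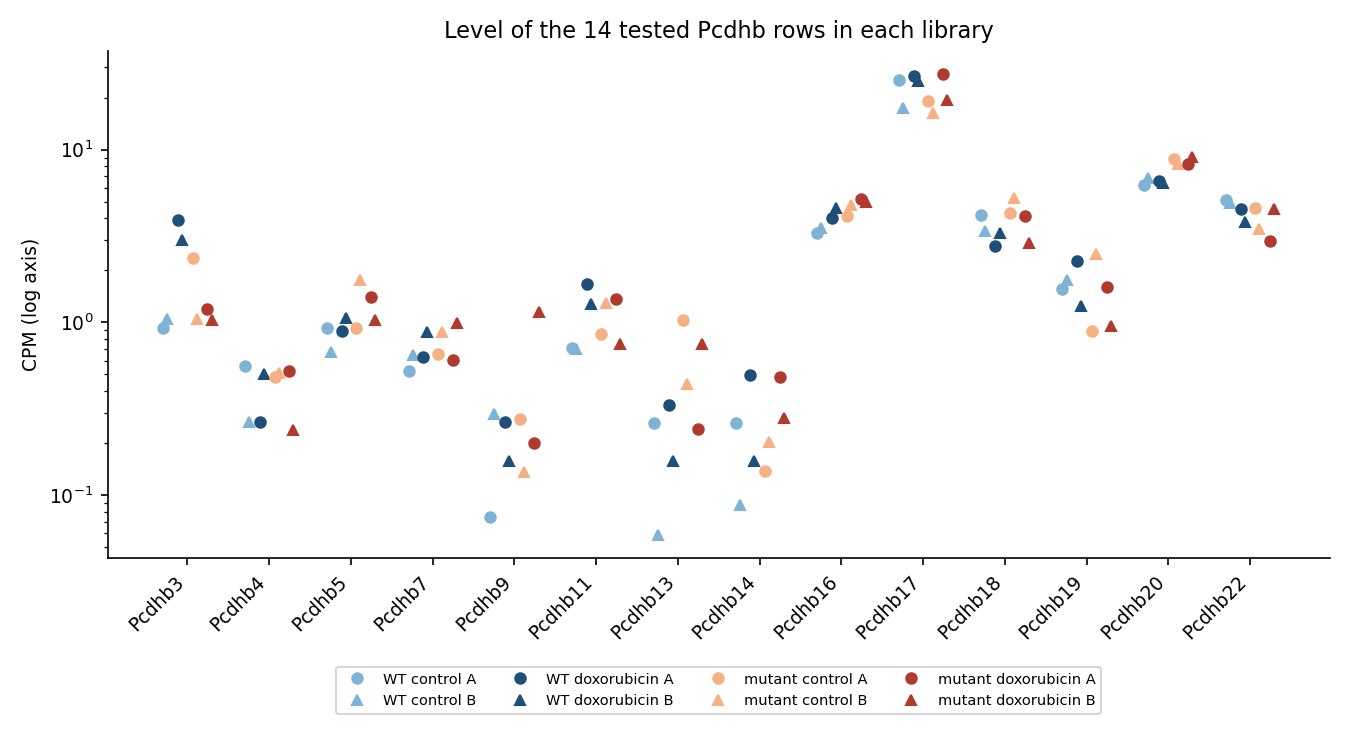
Level of each of the 14 tested beta protocadherins (x axis, in cluster order) in each of the 8 libraries (y axis, CPM, log axis), with colour for the group, circles for library A and triangles for library B. Pcdhb17 and Pcdhb20 are the 2 highest genes in all 8 libraries, and the points of Pcdhb3 in wild type with doxorubicin, at 3.91 and 3.01 CPM, lie above its other 6.

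Among the beta genes the levels were very uneven. Per kilobase of exon, Pcdhb17 was highest, with a mean over the 8 libraries of 4.73 CPM per kilobase (range 3.48 to 5.90), and Pcdhb20 followed with 2.12 (1.74 to 2.55), a 2.23-fold difference in level. Neither range met that of the next gene in the order. Below them came Pcdhb16 (0.826), Pcdhb18 (0.750), Pcdhb22 (0.642), Pcdhb3 (0.480), Pcdhb5 (0.307), Pcdhb11 (0.243), Pcdhb19 (0.223), Pcdhb7 (0.207), Pcdhb4 (0.112), Pcdhb13 (0.110), Pcdhb9 (0.104) and Pcdhb14 (0.0302), where the range of each gene over the libraries overlapped that of its neighbour in the order. The highest mean level per kilobase was 157-fold the lowest among the tested genes. The lowest, Pcdhb14, had a gene model of 8695 exonic bases against a RefSeq length of 3438. Before division by length, the means of Pcdhb17 and Pcdhb14 were 22.1 and 0.262 CPM. Sequencing of 3' ends stands in the labels, and for such reads a division by length need not hold. The 5 highest lay between the 16th and the 22nd position of the 22 genes in the order of the cluster. With RefSeq transcript lengths in place of GENCODE exon lengths, a choice made after seeing the data, Pcdhb22 moved from the fifth to the third place with 1.38 CPM per kilobase. By those lengths Pcdhb17 stood at 6.76, Pcdhb20 at 2.22 and Pcdhb14 at 0.0762 CPM per kilobase.

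**Figure D2:**
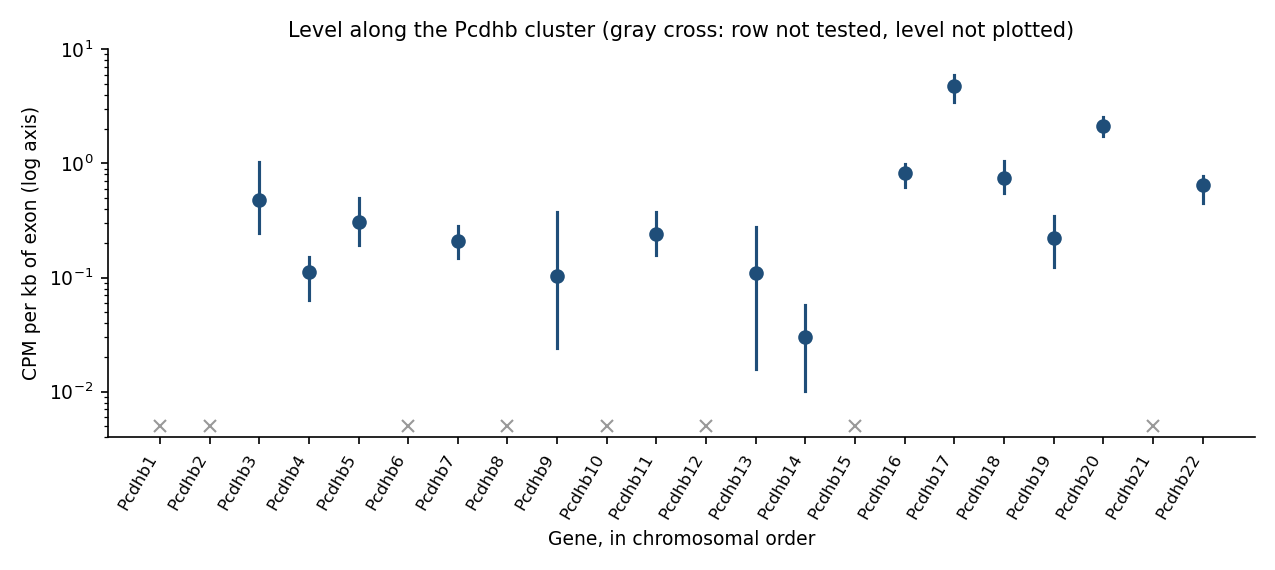
Mean level per kilobase of exon (log axis, CPM per kilobase, with the range over 8 libraries) of the 14 tested beta protocadherins against their order along the beta cluster, with crosses at the 8 genes not tested. The 5 highest genes lie between positions 16 and 22.

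Pcdhb17 was at 25.3 and 17.4 CPM in the wild-type controls, 26.6 and 24.9 in wild type with doxorubicin, 19.2 and 16.2 in the mutant controls and 27.5 and 19.4 in mutant cells with doxorubicin. It took 34.7% to 50.6% of the beta counts of a library. Pcdhb20 was at 6.20 and 6.89 CPM in the wild-type controls, 6.56 and 6.39 with doxorubicin, 8.78 and 8.23 in the mutant controls and 8.29 and 9.06 in mutant cells with doxorubicin, so that all 4 mutant libraries lay above all 4 wild-type libraries. Its share of the beta counts was 11.9% to 18.9%. The beta proteins encoded by both genes are homophilic adhesion molecules, and no role that sets either apart in fibroblasts is assumed here.

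Summed over the 22 beta rows, the level was 49.9 and 42.0 CPM in the wild-type controls, 55.3 and 51.6 in wild type with doxorubicin, 48.8 and 46.8 in the mutant controls and 55.9 and 48.0 in mutant cells with doxorubicin. The group means were 45.9 ± 5.55, 53.4 ± 2.66, 47.8 ± 1.38 and 52.0 ± 5.57 CPM (SD, n = 2 each). The wild-type groups did not overlap (ratio of means 1.16), while the mutant groups did (1.09), as did the genotypes under vehicle (1.04) and under doxorubicin (0.972). Summed gamma levels were 0.992 ± 0.0896 CPM in wild-type controls and 0.786 ± 0.128 CPM with doxorubicin (SD, n = 2), a ratio of 0.795 without overlap of the libraries. The counting error was wider than this gap, since the 95% Poisson intervals of the control sums, 16.2 to 36.9 and 25.2 to 49.8 counts, overlapped those with doxorubicin, 13.0 to 32.1 and 18.6 to 40.5 counts. The gamma sums were 0.750 ± 0.00696 CPM in the mutant controls and 0.676 ± 0.107 CPM in mutant cells with doxorubicin (SD, n = 2). Those groups overlapped, while the control groups of the genotypes did not (ratio 0.758). Here too the counting error was wide, since the Poisson interval of each mutant control sum, 13.8 to 33.3 counts, overlapped those of both wild-type controls. With 2 libraries against 2, a two-sided permutation test of a single sum cannot fall below an exact p of 0.333, so the sums were not tested.

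The first comparison was the response of wild-type fibroblasts to doxorubicin. Pcdhb3 had 25 and 36 counts in the controls and 118 and 96 with doxorubicin, or 0.928 and 1.05 CPM against 3.91 and 3.01 CPM. Both treated libraries stood well above both controls. Pcdhb3 rose 3.45-fold, a log2 fold change of 1.79 ± 0.29 (SE; 95% interval 1.18 to 2.40; edgeR quasi-likelihood test, Benjamini-Hochberg adjusted p = 2.06e-05, n = 2 against 2). It was called in each of the 8 fits that left out 1 library, with log2 fold changes of 1.59 to 1.97, and in all 8 other alternative fits.

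Pcdhb11 had 0.706 and 0.703 CPM in the wild-type controls, from 19 and 24 counts, and 1.66 and 1.28 CPM with doxorubicin, from 50 and 41 counts. The groups did not overlap. Its log2 fold change was 1.06 ± 0.34 (SE; edgeR adjusted p = 0.0105), which is 2.08-fold. In mutant cells it was at 0.857 and 1.29 CPM under vehicle and 1.36 and 0.752 CPM with doxorubicin, which overlapped. The wild-type call was lost without wild-type control B (log2 1.05, adjusted p = 0.0595), without wild-type doxorubicin A (log2 0.87, adjusted p = 0.0854) and in DESeq2 (adjusted p = 0.0508).

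These 2 were the only calls among the 14 members in this comparison, 14.3% of them, where 57.2% of all 12296 rows tested were called at an adjusted p under 0.05, and 49.9% of the 8431 rows with a mean level within the members' range of 0.262 to 22.1 CPM. An unadjusted p under 0.05 was reached by 3 of 14 members, against 61.2% of all rows. The log2 fold change was above 0 for 10 of 14 members, against 50.5% of all rows, with a median of 0.29 against 0.01 over all rows. The libraries of the groups did not overlap for 5 members, against 77.6% of all rows, and these were 3 higher with doxorubicin (39.4% of all rows) and 2 lower (38.2%). The members' standard errors were wider than those of most rows, with a median of 0.34 on the log2 scale against 0.15.

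In wild type, Pcdhb17 and Pcdhb16 lay near the threshold. Pcdhb17 (log2 0.28, edgeR adjusted p = 0.114) was called higher without wild-type control A (log2 0.56) and without mutant doxorubicin B (log2 0.29). It was also called in edgeR without the filter on low counts (adjusted p = 0.0203) and with the letters A and B as a block (adjusted p = 0.0221). These were 2 of the 8 alternative fits other than those without a library, and DESeq2 gave an adjusted p of 0.425. Without wild-type control B the log2 fold change of Pcdhb17 was 0.025. Pcdhb16, at 3.27 and 3.52 CPM in the controls and 4.04 and 4.57 CPM with doxorubicin, had a log2 fold change of 0.34 (adjusted p = 0.0806). Some cell type markers moved with the response too. Of 12 fibroblast markers, 3 rose and 6 fell in wild type and 1 rose and 6 fell in the mutant. Over all rows, 29.3% rose and 27.9% fell in wild type, and 28.3% rose and 25.7% fell in the mutant. Of 6 macrophage and leukocyte markers, 4 rose in wild type, while in the mutant all 6 were not called. Their sum in wild type went from 20.1 to 22 CPM in the controls to 28.8 CPM in both treated libraries. In the mutant their sum went from 27.3 to 27.7 CPM to 29.2 to 34.4 CPM. Of 3 endothelial markers tested, only Tek was called. Tek rose by log2 2.91 in wild type, from 0.780 and 1.17 CPM to 9.45 and 5.60 CPM, and by 3.39 in the mutant. Kdr and Cdh5 were not called in either genotype, and Pecam1 had at most 2 counts in any library. Kdr was at 1.15 and 1.29 CPM in the wild-type controls and 1.09 and 0.657 CPM with doxorubicin. The part of these cell type markers in the protocadherin responses was not tested.

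**Figure D3:**
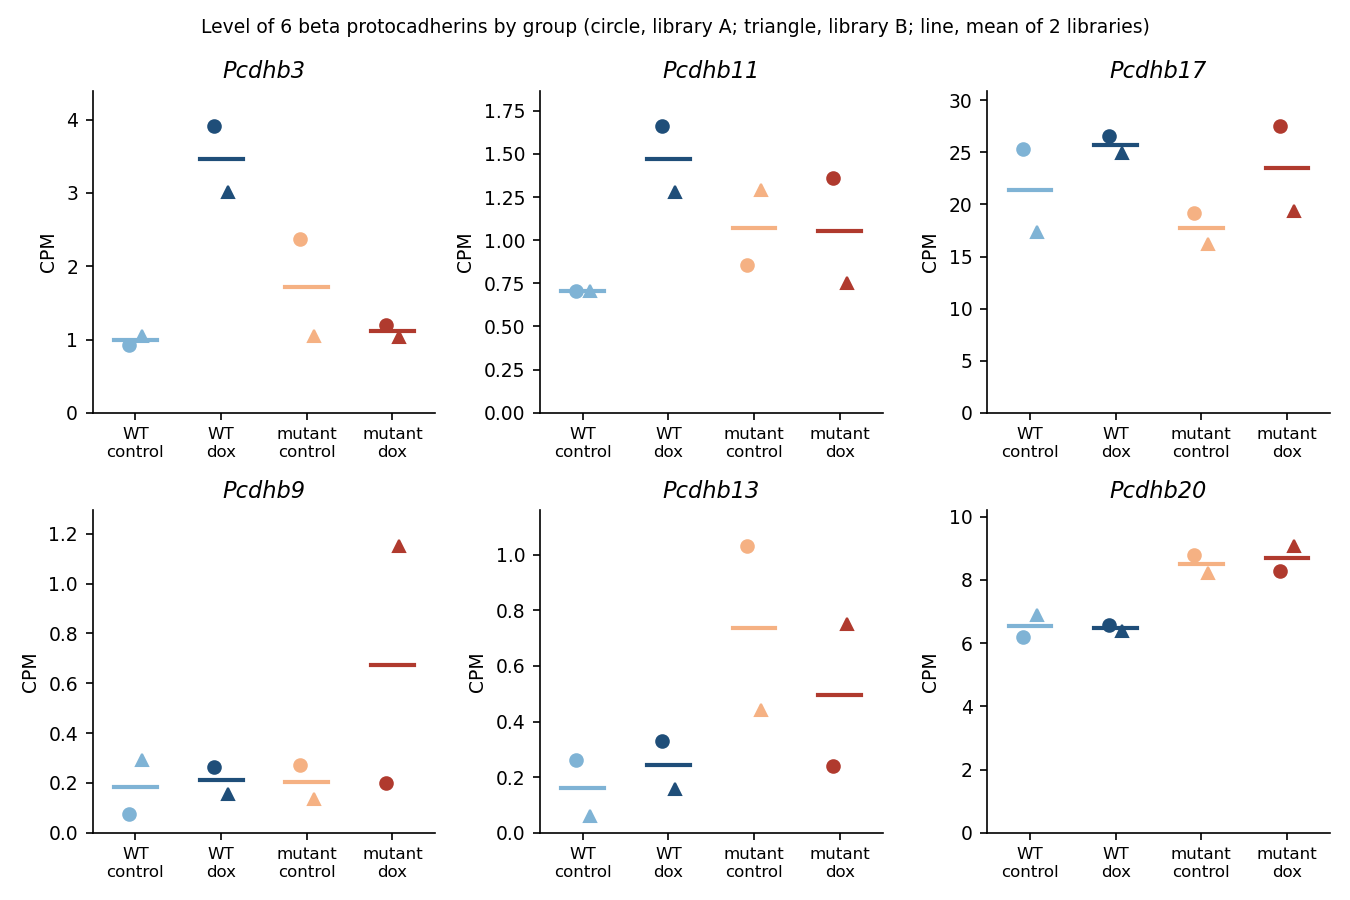
Level of the 5 members called in any comparison, and of Pcdhb20, in each library (circles, library A; triangles, library B; CPM, linear axes that start at 0), with the mean of each group of 2 libraries (line). Pcdhb3 is at 3.91 and 3.01 CPM in wild type with doxorubicin and between 0.928 and 2.37 CPM in the other 6 libraries.

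In mutant fibroblasts, Pcdhb3 had 69 and 31 counts in the controls and 30 and 26 with doxorubicin, or 2.37 and 1.05 CPM against 1.20 and 1.03 CPM. Control A stood above the other 3 libraries, which lay close together, and the groups overlapped. The log2 fold change was -0.61 ± 0.33 (SE; 95% interval -1.29 to 0.07; edgeR adjusted p = 0.125). Without mutant control B it was -1.08 (adjusted p = 0.00667), and without mutant control A it was 0.08 (adjusted p = 0.870), so that the 2 control libraries decide the call and its direction.

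The mutant response had 2 calls of 14 members (14.3%), where 54% of all rows were called and 46.1% of those in the members' range of levels. Pcdhb17, the most abundant member, went from 560 and 480 counts in the controls to 686 and 489 with doxorubicin, a log2 fold change of 0.40 ± 0.15 (SE; edgeR adjusted p = 0.0310). The treated libraries, at 27.5 and 19.4 CPM, lay above the controls, at 19.2 and 16.2 CPM, the lower one by little. Without mutant doxorubicin A the change was 0.13 (adjusted p = 0.534), and without mutant control B it was 0.29 (adjusted p = 0.219). Upper-quartile scaling (adjusted p = 0.0662) and DESeq2 (adjusted p = 0.227) also ended the call.

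Pcdhb9 was the other member called in the mutant response, and it rests on 1 library. It had 8 and 4 counts in the mutant controls and 5 and 29 with doxorubicin, and the groups overlapped at 0.274 and 0.135 CPM against 0.200 and 1.15 CPM. The log2 fold change was 1.70 ± 0.69 (SE; edgeR adjusted p = 0.0430). In wild type Pcdhb9 was at 0.0743 and 0.293 CPM under vehicle and 0.265 and 0.157 CPM with doxorubicin. Without mutant doxorubicin B, or without wild-type control B, the gene no longer reached the count minimum. The call was also lost without mutant control A (log2 2.28, adjusted p = 0.0609) and without mutant control B (log2 1.29, adjusted p = 0.219), and in 5 of 7 other alternative fits.

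Across the 14 members in mutant cells, 6 had a log2 fold change above 0, against 50.6% of all rows, with a median of -0.07 against 0.01 over all rows. An unadjusted p under 0.05 was reached by 3 members, against 58.4% of all rows. Groups did not overlap for 4 members, against 76.9% of all rows, and these were 3 higher (39.2% of all rows) and 1 lower (37.6%). Pcdhb18, at 4.32 and 5.25 CPM in the mutant controls and 4.13 and 2.89 with doxorubicin, had a log2 fold change of -0.45 ± 0.19 (SE; edgeR adjusted p = 0.0566). It was called lower without wild-type doxorubicin A (log2 -0.45), mutant control A (log2 -0.58) or mutant doxorubicin A (log2 -0.72). It was also called with upper-quartile factors (log2 -0.51, adjusted p = 0.0303) and without the filter on low counts (adjusted p = 0.0302). These were 3 of 8 fits that left out 1 library and 2 of 8 others. Without mutant control B the log2 fold change was -0.30, and without mutant doxorubicin B it was -0.21. DESeq2 gave an adjusted p of 0.160. In wild type Pcdhb18 was at 4.20 and 3.40 CPM under vehicle and 2.75 and 3.29 CPM with doxorubicin.

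The series title concerns genes whose expression relies on Dino. The nearest test here is the mutant response to doxorubicin minus the wild-type response. That difference cannot separate Dino from the sex of the embryos, because the genotypes also differed in sex-linked genes, as given below. Pcdhb3 was the only member called. Its response was lower in the mutant by 2.40 ± 0.44 on the log2 scale (log2 difference -2.40, SE 0.44, 95% interval -3.32 to -1.48; edgeR adjusted p = 0.0412). That is 1 of 14 members (7.14%), where 11 of 12296 rows (0.0895%) were called, and 0.0593% of those in the members' range of levels. An unadjusted p under 0.05 was reached by 2 members, against 5.68% of all rows. A log2 difference above 0 was found for 5 members, against 52% of all rows. By level, Pcdhb3 was 3.91 and 3.01 CPM in wild type with doxorubicin and 1.20 and 1.03 CPM in mutant cells with doxorubicin, with no overlap.

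The direction of this difference was the same in every alternative fit that gave it a value, from -2.87 to -1.71 on the log2 scale over the fits that left out 1 library, but the call was kept in only 2 of those 8. It was kept without wild-type doxorubicin B (adjusted p = 0.0115) and without mutant control B (adjusted p = 0.00594). It was lost without wild-type control A (adjusted p = 0.246), wild-type control B (0.129), wild-type doxorubicin A (0.114), mutant control A (0.415), mutant doxorubicin A (0.0704) or mutant doxorubicin B (0.115), and in limma-voom (adjusted p = 0.0988). Among the other 13 members, Pcdhb11 had a log2 difference of -1.08 ± 0.48 (SE; unadjusted p = 0.0357 in edgeR's test, adjusted p = 0.832), and the median over all 14 was -0.23 against 0.01 over all rows. The members' median standard error of the difference was 0.48, against 0.22 over all rows.

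**Figure D4:**
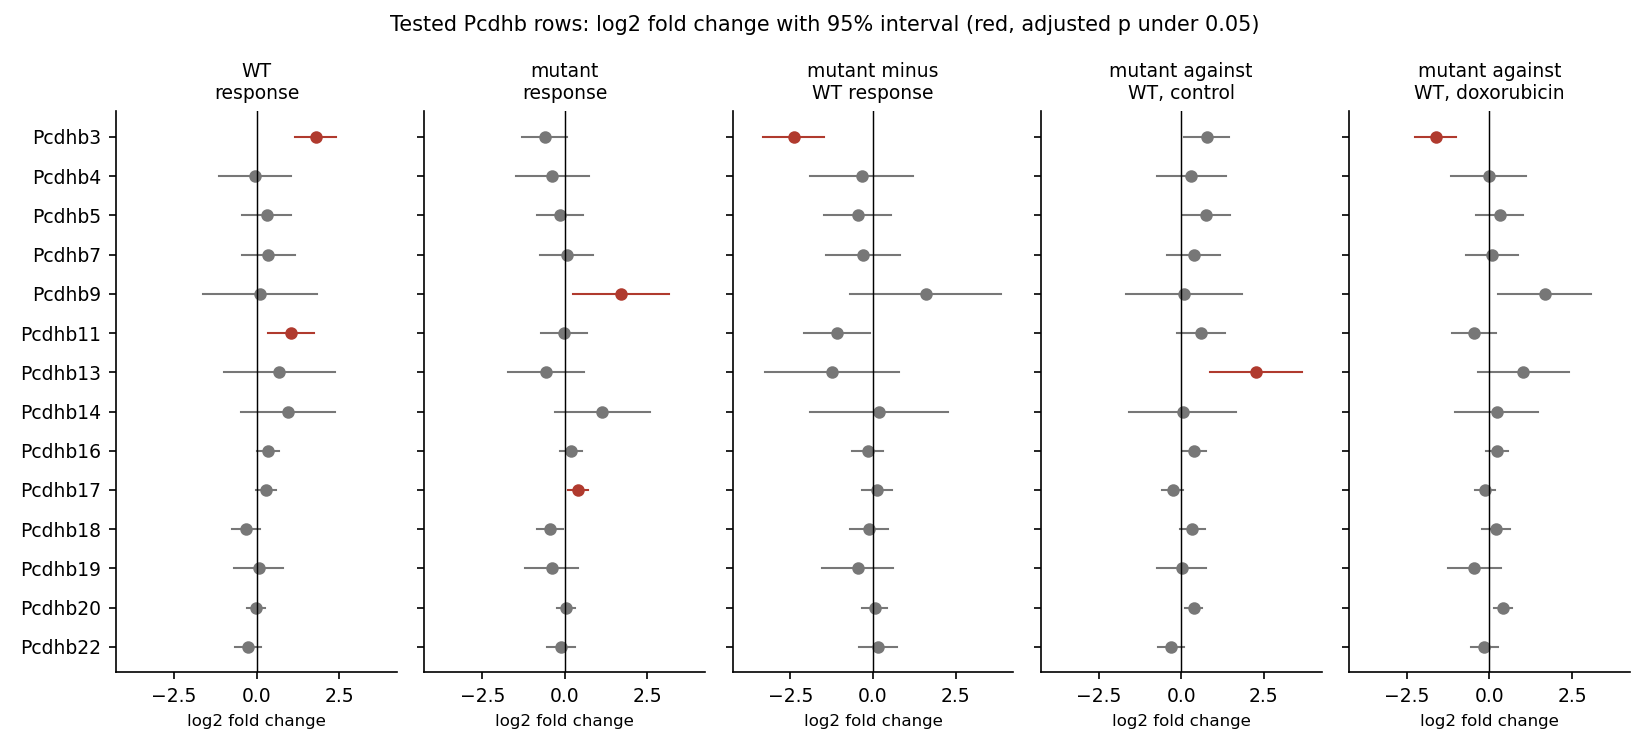
Log2 fold change of each of the 14 tested beta protocadherins in each comparison (points, with 95% intervals), with calls at an adjusted p under 0.05 in red. Pcdhb3 is at 1.79 in the wild-type response, -0.61 in the mutant response and -2.40 in their difference.

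The genotypes were then compared within each treatment. These comparisons share libraries with the responses above, so each is given by its own values. With doxorubicin, Pcdhb3 was lower in mutant than in wild-type cells, at 1.20 and 1.03 CPM against 3.91 and 3.01 CPM, a log2 difference of -1.63 ± 0.30 (SE; 95% interval -2.25 to -1.01; edgeR adjusted p = 0.000978), or 0.324-fold. It was called in all 8 fits that left out 1 library and in all 8 other fits. It was the only call of 14 members (7.14%), where 7.67% of all rows and 5.63% of those in the members' range of levels were called. Pcdhb20 lay above wild type in both mutant libraries, with a log2 difference of 0.42 ± 0.13 (SE; edgeR adjusted p = 0.0506), which just missed the threshold. It was called in 3 of 8 alternative fits other than those without a library, among them the fit on DESeq2 size factors (adjusted p = 0.0481). DESeq2 itself gave an adjusted p of 0.155. Of the 8 fits that left out 1 library, 0 called Pcdhb20 (log2 0.36 to 0.48). Pcdhb9 had a log2 difference of 1.67 (edgeR adjusted p = 0.163), and its groups overlapped. Pcdhb9 was called higher only without mutant doxorubicin A (log2 2.43), which left the library with 29 counts alone in its group. Groups did not overlap for 3 members, against 47.5% of all rows, and these were 2 higher in the mutant (23.4% of all rows) and 1 lower (24.1%). The log2 difference was above 0 for 8 members, against 49.8% of all rows, with a median of 0.14, and 3 had an unadjusted p under 0.05, against 19.5% of all rows.

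Under vehicle, the only member called was Pcdhb13, 1 of 14 (7.14%), where 5.94% of all rows and 4.57% of those in the members' range were called. It had 7 and 2 counts in the wild-type controls and 30 and 13 in the mutant controls, or 0.260 and 0.0586 CPM against 1.03 and 0.440 CPM. The groups did not overlap, though the lower wild-type count is below the 3 counts that a count of 0 allows. The log2 difference was 2.27 ± 0.67 (SE; edgeR adjusted p = 0.0472). The call was lost without wild-type control B (log2 1.48) and without mutant control A (log2 1.54). It was also lost in limma-voom (adjusted p = 0.0590) and in edgeR with the letters A and B as a block (adjusted p = 0.0635). With doxorubicin, the same gene had 10 and 5 counts in wild type and 6 and 19 in the mutant, which overlapped.

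Most of the other differences under vehicle were above 0 without passing the test. The log2 difference was above 0 for 12 of 14 members, against 49.2% of all rows, with a median of 0.36 against 0.00 over all rows, and 5 of 14 had an unadjusted p under 0.05, against 15.4% of all rows. Groups did not overlap for 7 members, against 45.1% of all rows, and these were 6 higher (21.5% of all rows) and 1 lower (23.6%). Pcdhb20 (log2 0.37 ± 0.13 SE, edgeR adjusted p = 0.107) and Pcdhb16 (log2 0.40, adjusted p = 0.213), at 4.15 and 4.81 CPM in the mutant controls against 3.27 and 3.52, did not pass. In mutant cells with doxorubicin Pcdhb16 was at 5.21 and 4.95 CPM. Pcdhb3 (log2 0.77 ± 0.32 SE, adjusted p = 0.221) was called higher without mutant control B (log2 1.24, adjusted p = 0.0223), and without mutant control A it stood at 0.08 (adjusted p = 0.976).

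The genotypes also differed in sex-linked genes. Xist, the noncoding RNA of X inactivation, had means of 0.276 and 0.304 CPM in wild type under vehicle and doxorubicin, and of 233 and 523 CPM in the mutant. On the Y chromosome, Kdm5d, Uty, Ddx3y and Eif2s3y were all lower in the mutant, with log2 differences between the controls of -3.08, -2.93, -2.88 and -2.69, and Ddx3y was still at 73.9 CPM in the mutant controls. Genotype and the sex of the embryos that gave the cells cannot be told apart in this design. The summed level of neural markers differed between the genotypes as well, though its members did not all go one way. The sum was 46.3 to 47.4 CPM in the wild-type and 75.4 to 75.7 CPM in the mutant controls, and 48.3 to 51.3 against 64.1 to 65.1 CPM with doxorubicin. Most of that gap was Map2, a microtubule protein of dendrites, at 17.4 against 43.6 CPM in the controls. Of 7 tested, 2 were higher in the mutant controls, 1 was lower and 4 were not called, and with doxorubicin the counts were the same. Over all rows, 2.77% were higher and 3.17% lower in the mutant controls, and 3.93% and 3.74% with doxorubicin. Nes, a filament gene of neural progenitors, was the lower one, with means of 12.6 CPM in wild-type against 9.58 CPM in mutant controls and 21.8 against 16.2 CPM with doxorubicin, while 5 of the 12 markers on the list, Rbfox3, Snap25, Syt1, Dcx and Elavl3, had 0 to 7 counts in any library. The part of either in the protocadherin differences was not tested.

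By the median, the members scattered more between libraries A and B of a group than rows in the same broad range of mean levels. The median size of the log2 ratio of A to B over the 14 members was 0.29 in wild-type controls, 0.37 in wild type with doxorubicin, 0.42 in mutant controls and 0.64 in mutant cells with doxorubicin. Over rows in the same range of mean levels, 0.262 to 22.1 CPM, it was 0.20, 0.20, 0.19 and 0.21. Those rows were not matched to the members by level within that range. Of the 14 members, 5 had a mean under 1 CPM, where few counts set the ratio. Among the abundant members, Pcdhb20 differed 1.03- to 1.11-fold within a group and Pcdhb17 1.07- to 1.45-fold. The widest was Pcdhb9 in mutant cells with doxorubicin, at 5 against 29 counts, a 5.75-fold ratio in CPM. Pcdhb19, at 0.892 against 2.47 CPM in the mutant controls, differed 2.77-fold, and Pcdhb3, at 69 against 31 counts in the same libraries, 2.26-fold. Pcdhb5 likewise stood at 0.926 against 1.76 CPM there, next to 0.928 and 0.674 CPM in the wild-type controls.

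The remaining members were not called in any comparison. Pcdhb22 was at 5.12 and 4.89 CPM in the wild-type controls, 4.54 and 3.82 in wild type with doxorubicin, 4.60 and 3.49 in the mutant controls and 2.96 and 4.51 in mutant cells with doxorubicin. Pcdhb19 was at 1.56 and 1.76 CPM, 2.25 and 1.25, 0.892 and 2.47, and 1.60 and 0.950 CPM in the same order of groups, and was called in the mutant response only when mutant control A was left out. Pcdhb5 was at 0.928 and 0.674, 0.895 and 1.06, 0.926 and 1.76, and 1.40 and 1.03 CPM. Neither showed a group that stood clear of all others. Pcdhb7 was at 0.520 and 0.645, 0.630 and 0.877, 0.652 and 0.880, and 0.601 and 0.989 CPM. Pcdhb4 ranged from 0.237 to 0.557 CPM over the 8 libraries and Pcdhb14 from 0.0879 to 0.497. In all, 5 of the 14 members were called in at least 1 of the 5 comparisons and 9 in none.

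Genes known to control promoter choice in the clusters mostly fell with doxorubicin in both genotypes. Of 21 tested regulators, 14 fell and 1 rose in wild type, where 27.9% of all rows fell and 29.3% rose, and 12 fell and 1 rose in the mutant, where 25.7% fell and 28.3% rose. The median log2 fold changes were -0.49 and -0.41. Their summed level was 1030 to 1060 CPM in wild-type controls against 699 to 723 CPM with doxorubicin, and 1030 to 1090 against 745 to 789 CPM in the mutant. Smchd1, a chromatin protein that silences clustered protocadherins, went from 208 and 206 CPM to 104 and 85.3 CPM in wild type, a log2 fold change of -1.13 ± 0.09 (SE; edgeR adjusted p = 2.17e-10). Dnmt3b, which methylates their promoters, fell by 1.34 on the log2 scale, the cohesin subunit genes Stag1 and Rad21 fell by 0.96 and 0.77, Pds5b, a cohesin regulator, fell by 0.88, and Ctcf, whose protein bridges promoter and enhancer, fell by 0.55. Rest, a repressor of neuronal genes, was the 1 regulator that rose, by log2 0.65 in wild type and 0.98 in the mutant.

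The non-clustered protocadherins, which lie singly in the genome, mostly fell with doxorubicin. Of 8 tested, 7 fell in each genotype and 1 was not called, where 27.9% of all rows fell in wild type and 25.7% in the mutant, with median log2 fold changes of -1.12 in wild type and -1.02 in the mutant. Pcdh18 was the most abundant, at 643 and 671 CPM in wild-type controls and 132 and 136 CPM with doxorubicin, a log2 fold change of -2.29 ± 0.07 (SE; edgeR adjusted p = 8.83e-17). In the mutant it went from 742 and 731 to 171 and 158 CPM, log2 -2.16, and with doxorubicin it was higher in mutant than in wild-type cells by log2 0.30 (adjusted p = 0.00678). Pcdh20, Pcdh11x and Pcdh19 fell by 2.10, 1.95 and 1.28 in wild type. Pcdh17, the member that was not called, had a log2 fold change of 0.62 (adjusted p = 0.0625). Whether the 2 lists differ was not tested.

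**Figure D5:**
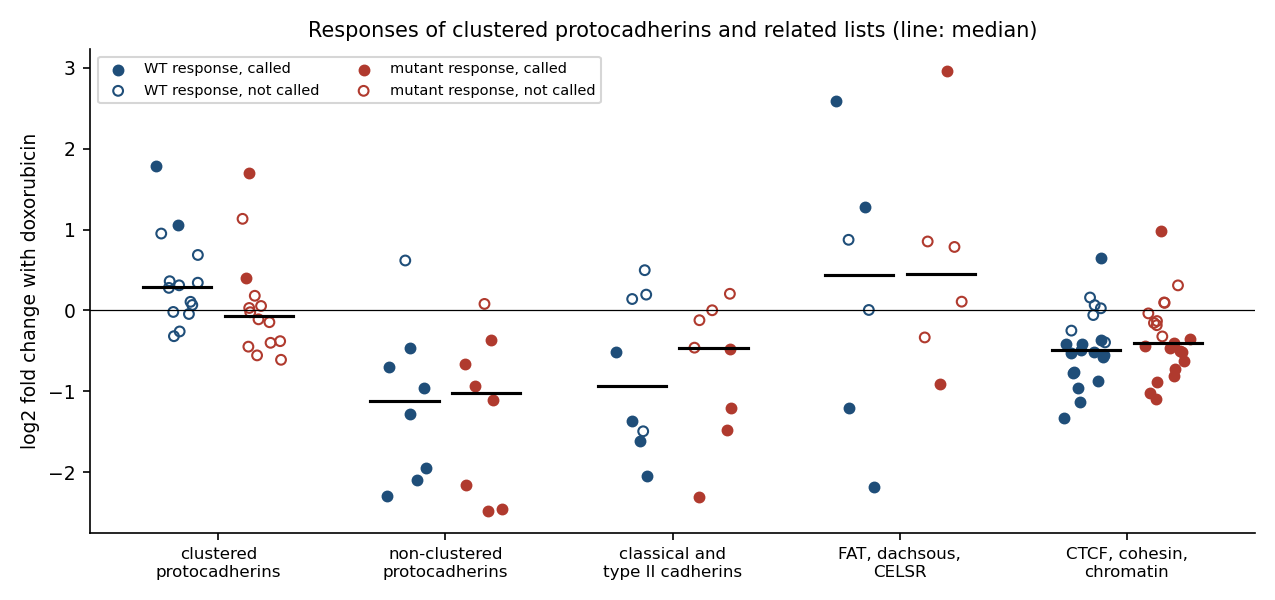
Log2 fold change with doxorubicin of each tested gene (points, filled where called at an adjusted p under 0.05) and the median (line) of the clustered protocadherins and of 4 related lists, in wild type (blue) and mutant (red). The median is 0.29 and -0.07 for the clustered protocadherins, -1.12 and -1.02 for the non-clustered ones and -0.49 and -0.41 for the regulators.

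The genes that lie beside and between the clusters on the chromosome had median log2 fold changes near 0, 0.02 in wild type and 0.05 in the mutant. Of 13 tested, 2 rose and 3 fell in wild type, and 3 rose and 1 fell in the mutant, where 29.3% of all rows rose and 27.9% fell in wild type and 28.3% and 25.7% in the mutant. Taf7, a subunit of the basal transcription factor TFIID whose gene lies between the beta and gamma clusters, rose from 14.1 to 19.2 CPM on average in wild type (log2 0.44 ± 0.11 SE, edgeR adjusted p = 0.00142) and to 17.3 CPM in the mutant (log2 0.30, adjusted p = 0.0259). Rnf14, a ubiquitin ligase gene, rose by log2 0.68 and 0.46. Hdac3, a histone deacetylase gene, fell by 0.56 and 0.42, and Wdr55 fell by 0.55 in wild type and had a log2 fold change of -0.27 in the mutant (adjusted p = 0.116).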

How the data were processed

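RNA of 8 libraries was measured. The authors deposited unnormalized counts for each gene symbol, made with Bowtie2 and HTSeq on mm9, per the submitters' processing notes. Both a TruSeq RNA Access (exome capture) kit and sequencing of 3' ends stand in the labels, and which was used was not settled. The annotation, strand setting and treatment of reads that fit several genes are not given in the sources used here.

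Rows with at least 10 counts in at least 2 of 8 libraries were tested: 12296 of 30419, of which 18596 had a count. One model over the 4 groups was fitted with edgeR 4.0.16 in R 4.3.3 (TMM factors, quasi-likelihood F test, 4 residual degrees of freedom, common biological coefficient of variation 0.0636). Its 5 contrasts were the response in each genotype, their difference and the genotypes within each treatment. P-values were Benjamini-Hochberg adjusted over all rows tested, with calls made below 0.05. The SE is the log2 fold change divided by the square root of F, and 95% intervals use the moderated degrees of freedom. The script was tested on simulated counts.

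The members and gene lists were chosen with earlier results of these data known. Per-library values were given for called members and the 10 most abundant. From each other list up to 4 called genes per comparison were named, by size of change. Rad21, Ctcf, Pcdh17, the most abundant fibroblast markers and the neural markers with few counts were named beyond this rule, after their values were seen. GENCODE M21 and RefSeq, both on GRCm38, gave gene order, lengths and shared exons, and no coordinate was carried over. Alternatives were other scalings, DESeq2 1.42.0, limma-voom (limma 3.58.1), other filters, an adjusted p under 0.1, fits on only the groups compared, a replicate block, and fits without 1 library at a time. Letters A and B were not taken as pairs: deviations of same-lettered libraries correlated at -0.0429 to 0.0740 over 12296 rows.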

Additional observations from a re-analysis of the deposited data

Results flagged for a closer look

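The response of Pcdhb3 to doxorubicin differed between the genotypes by edgeR's test of the difference itself. The log2 difference, mutant minus wild type, was -2.40 ± 0.44 (SE; adjusted p = 0.0412). The gene rose in both wild-type libraries relative to both controls, while the mutant libraries with doxorubicin overlapped their controls. Mutant control A, at 2.37 CPM, stood apart from mutant control B, at 1.05 CPM, and without it the difference was -1.71 (adjusted p = 0.415). The call of the difference was kept in only 2 of the 8 fits that left out 1 library, and it was lost in limma-voom (adjusted p = 0.0988). The comparison within doxorubicin was called in all 8 of those fits. Its contrast holds neither control group, though its spread was estimated from all 8 libraries, and it does not test the difference of responses.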

How the results depend on the processing

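Among the members, 29 rows had counts but stayed below the minimum for a test. The 7 calls kept their sign in all 106 values from other fits, and 24 results not called, for the members followed through these fits, kept theirs in 347 of 362. The count of members called in the wild-type response (2) was 1 in DESeq2, 3 without a filter or with the replicate block (Pcdhb17 added, adjusted p = 0.0221 with the block), and 1 to 3 when a library was left out. In the mutant response (2) it was 0 in DESeq2, 1 with upper-quartile factors, where Pcdhb18 was called and neither Pcdhb17 nor Pcdhb9, 1 (Pcdhb17) with limma-voom, filterByExpr, only the libraries compared, or the replicate block, 3 without a filter, and 1 to 3 when a library was left out. Without mutant control B its 1 call was Pcdhb3. For the difference of responses (1) it was 0 in limma-voom and 0 to 1 when a library was left out. For mutant against wild-type controls (1) it was 0 in limma-voom and 0 with the replicate block (Pcdhb13, log2 2.24, adjusted p = 0.0635), and 0 to 2 when a library was left out. With doxorubicin (1) it was 2 at an adjusted p under 0.1, 2 with DESeq2 size factors, with upper-quartile factors or with the replicate block, where Pcdhb20 was added, and 1 to 2 when a library was left out. DESeq2 gave an adjusted p to only 2 of 14 members in the difference and 10 of 14 in each genotype comparison, and none to Pcdhb3 in the difference or to Pcdhb13 between the controls, so those 2 counts were not run. On total counts in place of TMM, summed beta levels were 56.1 CPM in wild type with doxorubicin and 46.3 CPM in mutant controls, and the summed gamma level in mutant controls was 0.726 CPM. The cause of these changes was not tested.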

Other observations

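Partners and proteases of the clustered protocadherin proteins moved in both directions with doxorubicin. Of 22 tested, 7 rose and 6 fell in wild type, and 7 rose and 4 fell in the mutant, where 29.3% and 28.3% of all rows rose and 27.9% and 25.7% fell. Cyfip2, a subunit of the WAVE complex that binds the cytoplasmic tails of protocadherins, was at 0.668 and 1.11 CPM in wild-type controls and 19.5 and 12.8 CPM with doxorubicin, a log2 fold change of 4.14 ± 0.25 (SE; edgeR adjusted p = 7.51e-12), and log2 3.07 in the mutant. Ptk2, which encodes the focal adhesion kinase bound by the alpha and gamma tails, was at 127 and 128 CPM against 535 and 501 CPM, log2 2.02 ± 0.07. The receptor kinase gene Ret rose by log2 2.14 in wild type and 1.43 in the mutant, and Fyn, a Src family kinase gene, fell by 1.25 and 1.24. Between the genotypes, Wasf1, a WAVE protein gene, was higher in the mutant controls by log2 0.59 (adjusted p = 4.94e-06), and Prkca, the protein kinase C alpha gene, differed by log2 -0.31 (adjusted p = 0.0238).

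Other cadherins and the catenins were measured beside them, where 57.2% of all rows were called in wild type and 54% in the mutant. Of 8 tested classical and type II cadherins, 4 fell in each genotype and 4 were not called. Cdh11, the osteoblast cadherin of mesenchymal cells, was at 1140 CPM in both wild-type controls and at 424 and 459 CPM with doxorubicin, log2 -1.37 ± 0.07 (SE; edgeR adjusted p = 1.01e-12), and Cdh2, N-cadherin, fell by 0.51. Of 6 tested FAT, dachsous and CELSR cadherins, 2 rose and 2 fell in wild type and 1 rose and 1 fell in the mutant. Celsr2, a planar polarity cadherin gene, rose by log2 2.59 and 2.96, and Fat4, which encodes a receptor for dachsous, fell by 1.21 and 0.91. Of 9 tested catenins, 2 rose and 4 fell in wild type, and 3 rose and 3 fell in the mutant. Jup, which encodes plakoglobin, rose by log2 0.98 and Pkp2, a plakophilin gene, fell by 0.99 in wild type.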
